A study of Mus musculus with 9 samples.

Results

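The 9 genes Gpr17, Bcas1, Neu4, Ugt8a, Mbp, Cnp, Myrf, Mag and Enpp6 mark the path on which an oligodendrocyte precursor cell stops dividing and becomes a myelin-forming oligodendrocyte. They are 9 of the 25085 genes in the count tables and were selected on their measured read counts in these same libraries, which differ between the cell types and among the OPC replicates. Their levels and fold changes are therefore given as a description, with no test. Of the 9, 8 passed the filter on low counts. Enpp6 did not, and its values are given as raw and scaled counts. The libraries held mRNA from 3 kinds of primary mouse culture, with 3 replicate libraries of each. Oligodendrocyte precursor cells (OPC) were purified from the cortex at postnatal days 6 to 9 and kept in culture for 6 to 7 days. DRG neurons, the sensory neurons of the dorsal root ganglia, were taken from embryos at E13.5 and kept for about 2 weeks. Astrocytes came from the cortex at postnatal days 1 to 3 and were grown to confluence over about 21 days. OPC and astrocytes came from animals of either sex. The labels name no strain, transgene or treatment. Donor age and days in culture changed with the cell type, as did the tissue where DRG neurons were compared, and cannot be told apart from it. The series was made to set nucleosome spacing in neurons beside that in glia. For these 9 genes the question is how far the program of oligodendrocyte differentiation was on in each cell type and in each OPC culture.

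Oligodendrocytes wrap axons in myelin, a compacted stack of membrane rich in galactolipids. A precursor that commits to this fate first passes through a short stage marked by the membrane receptor GPR17, the cytoplasmic protein BCAS1, the sialidase NEU4 and the choline phosphodiesterase ENPP6. The transcription factor MYRF then turns on genes of myelin, which include those of myelin basic protein (Mbp), the nucleotide phosphodiesterase CNP and the adhesion protein MAG. UGT8, the product of Ugt8a, makes galactosylceramide, the main galactolipid of myelin.

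The authors' raw counts came to between 30710093 and 53594210 assigned reads per library, and 15894 to 17068 genes had at least 1 read. Levels are given as CPM, a gene's read count relative to the size of its library, which was scaled by edgeR's TMM factors. Reads were counted per RefSeq transcript accession, so a read shared by several accessions of a gene was not counted, and genes with more than 1 accession are represented by isoform-specific reads. Among the 9 genes this applied to Bcas1 (2 accessions), Cnp (2) and Mbp (8). Markers of the labelled cell types were present. Progenitor genes summed to 2783 to 6311 CPM in OPC, 36.0 to 57.6 CPM in DRG neurons and 1286 to 1370 CPM in astrocytes. Neuron genes summed to 342 to 356 CPM in OPC, 25857 to 50699 CPM in DRG neurons and 163 to 205 CPM in astrocytes. Astrocyte genes summed to 992 to 1256 CPM in OPC, 312 to 797 CPM in DRG neurons and 6747 to 8568 CPM in astrocytes. Some libraries stood apart. OPC replicate 1 did so for these 9 genes, as described below. OPC replicate 3 had fewer counts on long transcripts, with a median log2 ratio to the other two of −0.29 for transcripts from 4833 nucleotides upward, beside 0.22 where the length was between 131 and 1658 nucleotides. Microglia genes (13) summed to 23.8, 84.2 and 279 CPM in OPC replicates 1 to 3, and to 3598 CPM in Astrocytes replicate 1 against 603 and 555 CPM in the other two. The labels call the replicates biological replicate experiments without saying whether they came from separate litters, so p-values measure the spread between these libraries.

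Each of the 9 genes is annotated as protein coding in the RefSeq annotation of GRCm38.p6, the assembly behind mm10. Neu4 is at chr1:94020493-94028334, Bcas1 at chr2:170343973-170427911, Ugt8a at chr3:125865272-125938682, Mag at chr7:30899175-30914922, Enpp6 at chr8:46939197-47096762, Cnp at chr11:100574909-100591875 and Myrf at chr19:10208271-10240777. Upstream sequence is shown for 4 of them, as examples of both roles. Cnp and Mag encode myelin proteins that MYRF acts on, and Neu4 and Enpp6 are genes of the committed precursor. Each line gives the 250 bases before a RefSeq transcription start, 5′ to 3′ on the strand of the gene. They are chr11:100574689-100574938 on the plus strand for Cnp, chr7:30914864-30915113 on the minus strand for Mag, chr1:94020243-94020492 on the plus strand for Neu4 and chr8:46986637-46986886 on the plus strand for Enpp6. For Mag, which has 3 starts in that table, 1 start is shown. Capitals mark matches, on either strand, to 2 motifs. The SOX motif was searched as ACAAAG. The motif searched for MYRF, the regulator of myelin genes, was spelled CTGGCAC. The SOX match in Mag lies on the other strand and is printed as its reverse complement.
Cnp: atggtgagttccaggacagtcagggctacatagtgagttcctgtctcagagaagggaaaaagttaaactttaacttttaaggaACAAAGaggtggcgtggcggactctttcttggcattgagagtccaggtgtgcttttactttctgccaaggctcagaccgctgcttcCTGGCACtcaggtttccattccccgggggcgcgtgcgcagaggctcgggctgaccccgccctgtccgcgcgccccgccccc
Mag: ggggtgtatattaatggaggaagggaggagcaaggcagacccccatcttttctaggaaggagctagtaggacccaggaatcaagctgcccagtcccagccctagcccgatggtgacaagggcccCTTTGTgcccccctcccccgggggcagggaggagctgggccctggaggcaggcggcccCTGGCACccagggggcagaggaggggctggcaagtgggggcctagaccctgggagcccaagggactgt
Neu4: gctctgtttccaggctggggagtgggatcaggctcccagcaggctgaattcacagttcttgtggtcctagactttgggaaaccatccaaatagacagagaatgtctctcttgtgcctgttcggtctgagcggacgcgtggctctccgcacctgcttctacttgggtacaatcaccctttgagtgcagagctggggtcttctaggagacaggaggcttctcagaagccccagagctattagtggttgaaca
Enpp6: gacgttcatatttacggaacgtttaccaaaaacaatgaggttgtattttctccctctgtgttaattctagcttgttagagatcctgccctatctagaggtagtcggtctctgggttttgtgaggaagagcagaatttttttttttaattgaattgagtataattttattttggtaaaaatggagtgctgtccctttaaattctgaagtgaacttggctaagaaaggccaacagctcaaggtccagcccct
The Cnp and Mag windows each held 1 match to each motif. In Cnp the SOX match began 167 bases and the MYRF match 81 bases before the start, and in Mag they began 126 and 68 bases before it. The E-box of bHLH factors, a palindrome spelled CAGCTG, had no match in these windows, and Neu4 and Enpp6 held none of the 3 motifs. The Ugt8a window, searched in the same way, held none either. Among all 32851 promoter windows of that length, 16.5% held the SOX motif, 13.0% the E-box and 4.19% the MYRF motif. A match describes letters in the window and shows no binding.

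Gpr17, an orphan receptor of committed precursors that holds back their maturation, was concentrated in a single OPC library. The gene is at chr18:31942999-31949890. It stood at 786, 9.44 and 9.84 CPM in OPC replicates 1 to 3, at 0.14, 0.06 and 0.08 CPM in DRG neurons, and at 0.66, 0.17 and 0.39 CPM in astrocytes. Every OPC library was above every DRG and astrocyte library, and OPC replicate 1 was 81.5 times the mean of the other two. Of the summed OPC level, 97.6% came from that library. The mean over OPC was 664 times that of astrocytes and 2917 times that of DRG neurons, and with OPC replicates 2 and 3 alone these ratios were 23.9 and 105. The ratios to DRG neurons rest on 10 reads over that group. In bulk RNA a larger number of cells that express a gene and a higher level in each cannot be told apart. Gpr17 lies inside Lims2, on the opposite strand. Lims2, a focal adhesion adaptor, followed the same order, at 69.5, 3.52 and 6.45 CPM in OPC, 4.20, 0.97 and 2.19 CPM in DRG neurons and 4.23, 1.83 and 2.93 CPM in astrocytes. The strand setting of the counting was not given in the sources used here, so reads of this pair were not told apart with certainty.

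Bcas1, a marker of early myelinating oligodendrocytes, was present in all 3 OPC libraries and close to 0 elsewhere. It had 68.8, 26.1 and 27.2 CPM in OPC, 0, 0 and 0.03 CPM in DRG neurons and 0.08, 0.14 and 0.33 CPM in astrocytes. The groups OPC and astrocytes did not overlap, with a ratio of means of 222, or 146 with OPC replicates 2 and 3 alone and 374 without Astrocytes replicate 3. Against DRG neurons, which had 1 read in all, the ratio was 4695 with a 95% counting interval of 842 to 185463. Without the DRG library that held this read, Bcas1 was at least 1041-fold higher in OPC, against a floor of 3 counts over the 2 other DRG libraries. Such intervals, and floors of 3 counts over a group, cover counting error only, because reads carry no molecular identifiers. All Bcas1 reads fell on accession NM_029815, of which 138 bases are in no other accession, and none on NM_001164369.

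Neu4, a sialidase that trims polysialic acid and gangliosides, had almost no reads outside OPC. It had 65.1, 2.79 and 6.16 CPM in OPC, 0 CPM in every DRG library and 0, 0.02 and 0.06 CPM in astrocytes. OPC replicate 1 held 87.9% of the summed OPC level, and the other OPC libraries also lay above all DRG and astrocyte libraries. Reads in OPC numbered 3306, against 0 in DRG neurons and 3 in astrocytes. This made Neu4 at least 942-fold higher in OPC than in DRG neurons, against a floor of 3 counts over the DRG group (0.0259 CPM). The ratio to astrocytes was 1070 with a counting interval of 366 to 5190. Without OPC replicate 1 these values were lower, at least 167-fold over DRG neurons and a ratio of 190 to astrocytes with a counting interval of 64.5 to 925. Leaving out 1 library at a time otherwise gave bounds of 556 to 1417 over DRG neurons and ratios of 637 to 2326 to astrocytes.

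Enpp6, a choline-specific phosphodiesterase of newly forming oligodendrocytes, was detected above a handful of reads in OPC replicate 1 alone among the OPC libraries. Its raw counts were 340, 2 and 0 in OPC, or 7.60, 0.04 and 0 CPM. In DRG neurons it had 0, 0 and 0.03 CPM, and in astrocytes 0.19, 0.17 and 0.36 CPM. OPC replicates 2 and 3 lay below all astrocyte libraries, while replicate 1 lay above them. The OPC library means put Enpp6 at 10.7 times astrocytes with replicate 1 and at 0.086 times without it, and at 16.1 times without replicate 3. That library held 99.5% of the OPC sum, the highest such share of the 9 genes.

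Myrf, the transcription factor at the head of the myelin gene program, split the OPC cultures in the same way. It had 63.8, 5.41 and 6.14 CPM in OPC, 23.0, 23.8 and 14.3 CPM in DRG neurons, and 2.45, 1.16 and 1.80 CPM in astrocytes. OPC replicate 1 was above every DRG library and OPC replicates 2 and 3 were below every DRG library, so the groups overlapped. The fitted log2 difference between OPC and DRG neurons was 0.30 with all libraries and −1.81 without OPC replicate 1. Against astrocytes all OPC libraries were higher, with a ratio of means of 13.9, or 3.20 from replicates 2 and 3. In DRG neurons Myrf was 11.3 times its astrocyte level, and these groups did not overlap.

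Ugt8a, the galactosylceramide synthase gene, was present in all OPC libraries at a level that differed less between replicates. It had 135, 75.3 and 39.8 CPM in OPC, 9.88, 5.24 and 3.30 CPM in DRG neurons and 0.38, 1.54 and 3.10 CPM in astrocytes. No groups overlapped, and the order was OPC, then DRG neurons, then astrocytes, although the lowest DRG library (3.30 CPM) was close to the highest astrocyte library (3.10 CPM). The ratio of means was 13.6 for OPC over DRG neurons and 49.8 for OPC over astrocytes. Without OPC replicate 1 these ratios were 9.37 and 34.4, and without Astrocytes replicate 3 the ratio to astrocytes was 86.8.

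Mag, an adhesion protein of the myelin membrane facing the axon, was low everywhere. It had 5.43, 0.28 and 0.26 CPM in OPC, 0.07, 0.17 and 0.31 CPM in DRG neurons and 2.50, 0.90 and 0.58 CPM in astrocytes. OPC replicate 1 was the highest of all libraries, whereas OPC replicates 2 and 3 were below all astrocyte libraries. The fitted log2 difference between OPC and astrocytes was 0.58 with all libraries and −2.26 without OPC replicate 1. Among astrocyte libraries Mag was highest in replicate 1, which also had the most microglia RNA, with 13 of 13 microglia genes at 5 CPM or more there, against 11 and 10 in the other two and none of the genes at 0. The part of that RNA in the Mag level was not tested.

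**Figure D1:**
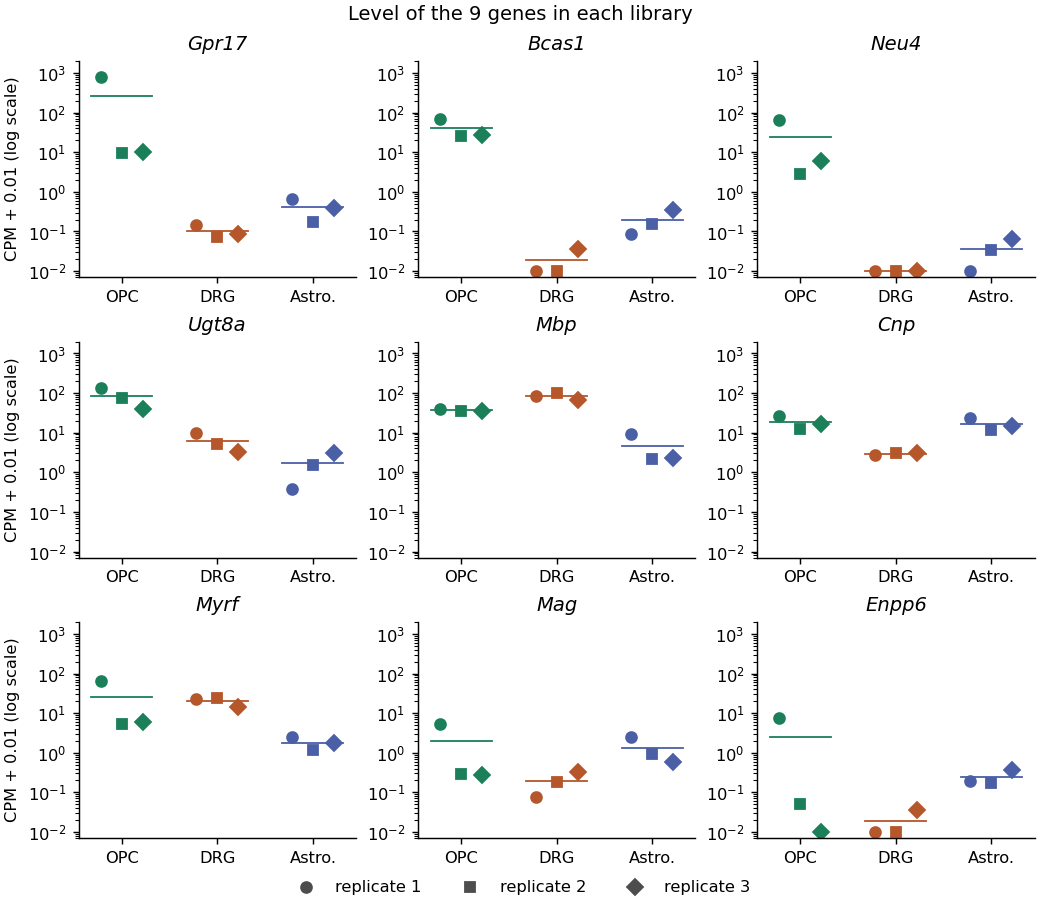
Level of each gene in CPM + 0.01 on a log axis in the 3 OPC, 3 DRG and 3 astrocyte libraries (symbols give the replicate, lines the group mean). In Gpr17, Neu4, Myrf, Mag and Enpp6 OPC replicate 1 sits far above replicates 2 and 3, whereas Mbp is highest in DRG neurons and Cnp overlaps between OPC and astrocytes.

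Mbp, the protein that holds the cytoplasmic faces of myelin together, was higher in DRG neurons than in OPC. The gene is at chr18:82475091-82585637. It had 40.6, 34.8 and 34.4 CPM in OPC, 85.4, 99.0 and 66.3 CPM in DRG neurons, and 9.40, 2.11 and 2.35 CPM in astrocytes. DRG neurons were above OPC and OPC above astrocytes in every library, with ratios of means of 2.28 for DRG neurons over OPC, 7.92 for OPC over astrocytes and 18.1 for DRG neurons over astrocytes. Without Astrocytes replicate 1 the ratios to astrocytes were 16.4 for OPC and 37.5 for DRG neurons. Mbp was the gene of the 9 that differed least among OPC replicates, with a log2 ratio of 0.23 for replicate 1 over the other two. The accession behind these reads bears on what the level means. Of 1817 Mbp reads in OPC replicate 1, 1816 fell on accession NM_001025245, and its share was at least 99.9% in all 9 libraries. That accession starts at the far upstream exon of the gene and ends inside a region that is intron for the others, as transcripts of the golli type do, which are known from neurons and immune cells as well. Of its 4797 bases, 3969 are in no other accession, while each of the other 7 accessions has 0 bases of its own. Reads that only the classic myelin transcripts could give were therefore not counted for them, and the Mbp level given here does not measure them.

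**Figure D2:**
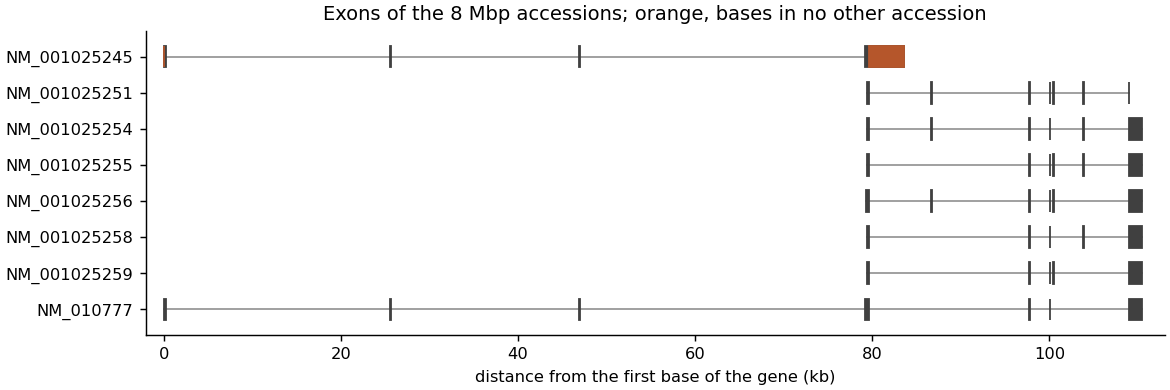
Exons of the 8 Mbp accessions to scale, by distance in kb from the first base of the gene, with bases found in no other accession in orange. The orange bases lie in NM_001025245, which holds at least 99.9% of the counted Mbp reads.

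Astrocytes replicate 1, the library with the most microglia RNA, was also the highest astrocyte library for Mbp, and the part of microglia in this was not tested. Schwann cells, the myelin-forming glia of peripheral nerves, can be present in DRG cultures. The 9 Schwann and satellite glia genes summed to 34.0, 41.2 and 29.6 CPM in OPC, to 90.0, 74.0 and 124 CPM in DRG neurons and to 158, 47.9 and 73.8 CPM in astrocytes. Between 0 and 2 of the 9 genes were at 0 in a DRG library. Their part in the DRG levels of Mbp, Myrf and Ugt8a was not tested.

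Cnp overlapped between OPC and astrocytes. It had 26.0, 12.7 and 16.6 CPM in OPC, 2.74, 3.01 and 3.15 CPM in DRG neurons and 23.7, 11.4 and 14.8 CPM in astrocytes. DRG neurons lay below both glial types, at a ratio of means of 6.22 for OPC over DRG neurons. The 2 accessions of the gene behaved differently. Both link to the same GENCODE transcript, so the bases that set NM_001146318 apart could not be located, and its share of reads is not a share of transcripts. NM_009923 had 15.6, 11.9 and 15.4 CPM in OPC and 23.0, 11.2 and 14.6 CPM in astrocytes, so its levels overlapped. NM_001146318 had 10.4, 0.834 and 1.23 CPM in OPC, against 0, 0.0421 and 0.0516 CPM in DRG neurons and 0.715, 0.214 and 0.221 CPM in astrocytes. It took 39.9% of Cnp reads in OPC replicate 1 (95% exact binomial interval 37.1 to 42.8), against 6.56% (4.75 to 8.79) and 7.39% (5.55 to 9.60) in OPC replicates 2 and 3. Its share was 0, 1.40 and 1.64% in DRG neurons and 3.01, 1.87 and 1.49% in astrocytes. Cnp overlaps Dnajc7, a cochaperone gene on the opposite strand, which ranged from 228 to 288 CPM in OPC, 245 to 261 CPM in DRG neurons and 146 to 168 CPM in astrocytes and did not follow the Cnp order.

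**Figure D3:**
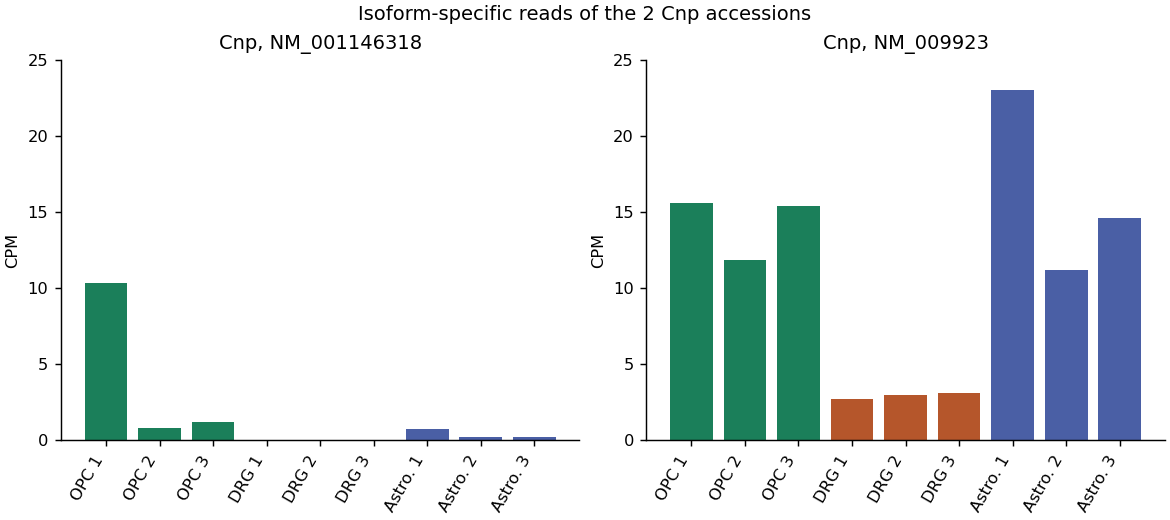
CPM of reads specific to each of the 2 Cnp accessions in every library. NM_001146318 reaches 10.4 CPM in OPC replicate 1 and stays at or below 1.23 CPM in all other libraries, whereas NM_009923 is at similar levels in OPC and astrocytes.

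Levels of different genes can be compared per length for the 6 genes with a single accession. In OPC replicate 1 the order was Gpr17 at 151 CPM per kb, Ugt8a at 36.1, Myrf at 19.1, Neu4 at 14.4, Mag at 2.23 and Enpp6 at 1.53 CPM per kb. In OPC replicate 2 Ugt8a led at 20.1 CPM per kb, followed by Gpr17 at 1.82 and Myrf at 1.62, and in OPC replicate 3 Ugt8a had 10.6, Gpr17 1.89 and Myrf 1.84 CPM per kb. Per length, Ugt8a led in replicates 2 and 3 and Gpr17 in replicate 1.

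Taking the 9 genes as a group, they summed to 1198 CPM in OPC replicate 1, against 167 and 140 CPM in OPC replicates 2 and 3. They summed to 121, 131 and 87.6 CPM in DRG neurons and to 39.4, 17.6 and 23.8 CPM in astrocytes. Most of the DRG sums was Mbp, whose level here does not measure the classic myelin transcripts. Mbp had 85.4, 99.0 and 66.3 CPM in DRG neurons, 40.6, 34.8 and 34.4 CPM in OPC and 9.40, 2.11 and 2.35 CPM in astrocytes. Gpr17 made up 65.6% of the sum in OPC replicate 1 and 5.66 and 7.01% in the other two OPC libraries. Without it the sums were 412, 157 and 131 CPM in OPC. The summed progenitor genes were also highest in replicate 1, at 6311, 4115 and 2783 CPM in OPC replicates 1 to 3. The largest part of that progenitor sum was Ptprz1, a transcript of 8068 nucleotides, at 3853, 2429 and 1189 CPM. Set against the progenitor sum, the 9 genes, with Gpr17 included, stood at 19.0, 4.06 and 5.05%. The value of replicate 1 was therefore mostly Gpr17, at 65.6% of its sum of the 9 genes.

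The 3 OPC cultures were compared by the log2 ratio of each OPC library to the mean of the other two, computed on CPM + 0.5. For replicate 1 the ratio was 6.28 for Gpr17, 3.96 for Enpp6, 3.72 for Neu4, 3.36 for Myrf, 2.94 for Mag, 1.35 for Bcas1, 1.22 for Ugt8a, 0.81 for Cnp and 0.23 for Mbp. All 9 were above 0, and 7 were at least 2-fold higher, where 3.74% of the 14850 genes tested were. None was at least 2-fold lower there (4.57% of all genes), whereas 5 were in replicate 2 (1.02%) and 6 in replicate 3 (7.76%). The median over the 9 was 2.94 for replicate 1, −2.09 for replicate 2 and −2.13 for replicate 3, beside −0.01, 0.00 and 0.00 over all genes tested. The mean that divides replicates 2 and 3 includes replicate 1, so their low ratios largely restate its high level and are no separate results. Gpr17 ranked 1, Neu4 4, Myrf 8 and Mag 14 among all genes tested in replicate 1. Because the 9 genes were picked with this difference in view, the ranks describe the library and are no test. Removing the trend with transcript length left the median of replicate 1 at 2.98.

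The groups of genes around the 9 differed in how far they followed OPC replicate 1. Committed precursor genes (12) had a median ratio of 0.46, and 3 of them were at least 2-fold higher. These were Lims2 (3.67), the secreted growth factor Bmp4 (3.55) and the semaphorin receptor Plxnb3 (2.87). Other myelin genes (22) had a median of 0.03, with 2 at least 2-fold higher, Tmem88b (2.87) and Cldn11 (1.08), and 1 at least 2-fold lower, Trf (−1.14). In replicate 3, 2 of these genes were at least 2-fold higher, Trf (1.32) and Opalin (1.14). Opalin stood at 0.89, 0.81 and 2.48 CPM in OPC replicates 1 to 3. Myelin galactolipid genes (12) had a median of 0.29, and the 2 that were at least 2-fold higher were Fa2h (3.23) and Gal3st1 (1.31), which hydroxylate the fatty acid of galactosylceramide and sulfate its sugar. Fa2h stood at 26.0, 1.95 and 2.69 CPM in OPC replicates 1 to 3. Differentiation inhibitors (11), which hold precursors back, had a median of 0.29, and 1 of them, Hes5 (2.26), was at least 2-fold higher. Hes5 had 37.7, 3.15 and 11.8 CPM in OPC replicates 1 to 3. Progenitor genes (13), which mark the stage before commitment, had a median of 0.67. Of these, 4 were at least 2-fold higher, Megf11 (1.62), C1ql1 (1.56), Ptprz1 (1.09) and Matn4 (1.06). Lineage transcription factors (12) had a median of 0.26, and 1 of them, Sox8 (1.03), was at least 2-fold higher. Among these factors Sox10 was at 746, 377 and 425 CPM and Olig2 at 1234, 1285 and 1463 CPM in OPC replicates 1 to 3, so only Sox10 of this pair was highest in replicate 1. Cell cycle genes (12) had medians of −0.31, 0.56 and −0.14 in replicates 1 to 3, and summed to 3656, 5831 and 2880 CPM. Microglia genes (13) had medians of −2.35, −0.61 and 1.98, and 0 of 13 reached 5 CPM in replicate 1, against 7 and 8 in replicates 2 and 3. The parts of cell cycle and microglia content in the ratios of the 9 genes were not tested.

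**Figure D4:**
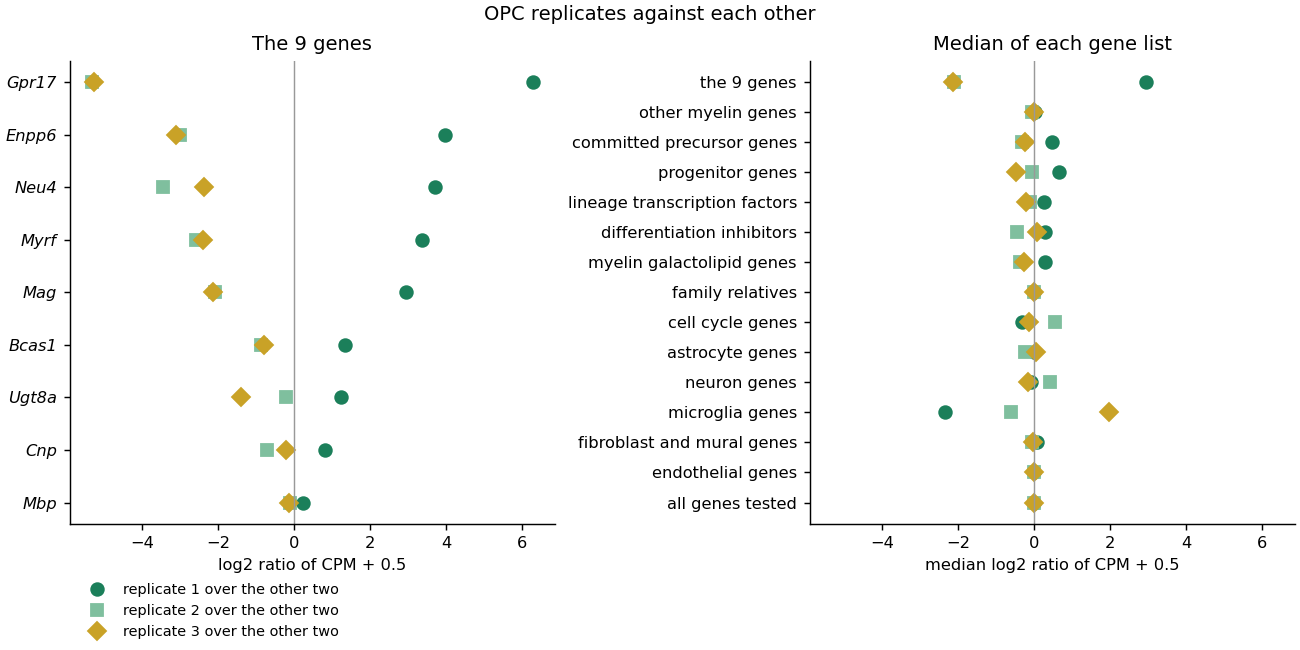
Log2 ratio of each OPC library to the mean of the other two for the 9 genes (left) and as the median of each gene list (right), on CPM + 0.5. The 9 genes have a median of 2.94 in replicate 1, whereas the other lists lie between −2.35 (microglia genes) and 0.67 (progenitor genes).

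Across cell types, 6 of the 9 genes were higher in every OPC library than in every astrocyte library, where 31.8% of all genes tested were. They were Gpr17, Bcas1, Neu4, Ugt8a, Mbp and Myrf, and the other 3 overlapped. None was lower in every OPC library, beside 29.4% of all genes. With OPC replicates 2 and 3 alone the same 6 genes were higher and Mag and Enpp6 were lower. Against DRG neurons, 5 genes (Gpr17, Bcas1, Neu4, Ugt8a and Cnp) were higher in every OPC library, beside 34.5% of all genes, and Mbp was lower, beside 32.9%. With OPC replicates 2 and 3 alone Myrf was lower as well. In DRG neurons against astrocytes, Ugt8a, Mbp and Myrf were higher in every DRG library (31.7% of all genes) and Gpr17, Bcas1, Cnp, Mag and Enpp6 were lower (37.3%). These comparisons share libraries and are not independent of each other.

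Genes outside the 9 were tested with the quasi-likelihood F-test of edgeR on all 14850 genes. Between OPC and astrocytes 51.8% of all genes passed at an adjusted p of 0.05, 26.3% higher and 25.5% lower in OPC, and between OPC and DRG neurons 59.5% passed, 31.1% higher and 28.4% lower. Other myelin genes split in both directions. Against astrocytes, of 14 tested, 5 rose, 4 fell and 5 did not pass, with a median log2 difference of 0.84 beside 0.09 over all genes. Against DRG neurons 5 rose, 4 fell and 5 did not pass, with a median of 0.36 beside 0.08. Without DRG replicate 1, 2 fell in place of 4. Pllp, a membrane protein of myelin rafts, had 120, 91.9 and 89.6 CPM in OPC, 3.01, 0.34 and 0.34 CPM in DRG neurons and 1.20, 2.64 and 2.87 CPM in astrocytes. It was higher in all OPC libraries, by a log2 of 5.49 over astrocytes (SE 0.86, edgeR adjusted p = 0.000801) and of 6.40 over DRG neurons (SE 0.90, edgeR adjusted p = 0.000295). Cldn11, the claudin of myelin tight junctions, rose by 3.87 over astrocytes and 4.08 over DRG neurons on the log2 scale (edgeR adjusted p = 0.00134 and 0.00072). Anln, a scaffold of septins and of dividing cells, was 5.21 higher than in DRG neurons (edgeR adjusted p = 0.000468), but 0.13 with an edgeR adjusted p of 0.885 against astrocytes. Car2, a carbonic anhydrase found in oligodendrocytes and astrocytes, fell by 3.27 against astrocytes (edgeR adjusted p = 5.7e-05) and by 0.80 against DRG neurons (edgeR adjusted p = 0.0333). Trf, which encodes the iron carrier transferrin, fell by 3.34 against astrocytes (edgeR adjusted p = 0.0282). Trf stood at 376 CPM in Astrocytes replicate 1, against 35.0 and 50.5 CPM in the other two, and without that library the log2 difference was −1.49 with an edgeR adjusted p of 0.154. The call was also lost without OPC replicate 1 (log2 −3.03, edgeR adjusted p = 0.0875) or OPC replicate 2 (log2 −3.17, edgeR adjusted p = 0.0922). The Car2 call against DRG neurons was lost without OPC replicate 1 (0.0662), OPC replicate 2 (0.0905), DRG replicate 1 (0.0813), DRG replicate 2 (0.106) or Astrocytes replicate 3 (0.0545) and with library size alone as the scaling (0.0712), while the log2 difference stayed between −0.83 and −0.66.

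Of the 22 other myelin genes, 8 did not pass the filter on low counts. They include Mobp, with 3 accessions and at most 0.02 CPM in any library. For such genes the isoform-specific reads say little about the level of the gene. Mog, with a single accession, had at most 0.13 CPM in OPC and 0.68 CPM in DRG neurons. Mog marks mature oligodendrocytes.

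Lineage transcription factors rose in OPC more uniformly. Of 12 tested, 9 rose, 1 fell and 2 did not pass against astrocytes (median log2 2.47). The gene that fell was Nkx6-2, and it was not called without OPC replicate 2 or OPC replicate 3, when 0 factors fell. Against DRG neurons 11 rose and Nkx6-2 did not pass (median 6.89). Sox10, which acts with MYRF on myelin genes, had 746, 377 and 425 CPM in OPC, 9.24, 4.21 and 16.3 CPM in DRG neurons and 0.58, 1.07 and 2.76 CPM in astrocytes. It rose by a log2 of 8.47 over astrocytes (SE 0.81, edgeR adjusted p = 6.49e-05) and of 5.70 over DRG neurons (SE 0.71, edgeR adjusted p = 0.000145). Olig2, the bHLH factor that specifies the lineage, was 3.42 higher than in astrocytes (edgeR adjusted p = 0.00204) and 12.12 higher than in DRG neurons (edgeR adjusted p = 1.29e-05). Sox8, a close relative of Sox10, rose by 2.50 over astrocytes (edgeR adjusted p = 0.00614). Chd7, a chromatin remodeler that works with SOX10, rose by 2.54 over astrocytes (edgeR adjusted p = 0.000115). Sox2, a factor of neural stem cells and progenitors, did not pass against astrocytes (log2 0.19, edgeR adjusted p = 0.658).

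Committed precursor genes went both ways. Against astrocytes 3 rose, 3 fell and 6 did not pass of 12 tested (median log2 −0.40), shares near the 26.3% and 25.5% of all genes, and against DRG neurons 6 rose, 2 fell and 4 did not pass (median 1.38). Fyn, a kinase that acts early in myelination, rose by 3.05 over astrocytes (SE 0.23, edgeR adjusted p = 2.08e-05) and by 2.49 over DRG neurons (SE 0.22, edgeR adjusted p = 2.3e-05), and its 3 OPC libraries lay between 83.0 and 110 CPM. Tns3, a tensin of immature oligodendrocytes, was 4.80 higher than in DRG neurons (edgeR adjusted p = 1.29e-05) and fell by 1.01 against astrocytes (edgeR adjusted p = 0.0262). Plxnb3 rose by 3.41 over astrocytes (edgeR adjusted p = 0.0179), with 65.2, 7.88 and 9.05 CPM in OPC and 4.61, 1.21 and 1.85 CPM in astrocytes. Without OPC replicate 1, Astrocytes replicate 2 or Astrocytes replicate 3 the committed precursor genes that rose over astrocytes numbered 1 in place of 3. Those that fell against DRG neurons numbered 1 in place of 2 without OPC replicate 2. The Plxnb3 call was lost without OPC replicate 1, at a log2 of 1.73 and an edgeR adjusted p of 0.0879, and it was also lost without Astrocytes replicate 2 (0.0539) or 3 (0.0621). Lims2 over DRG neurons had an edgeR adjusted p of 0.0222 (log2 3.44), and of 0.193 (log2 1.03) without OPC replicate 1, 0.0742 without DRG replicate 2 and 0.0687 without DRG replicate 3. The Tns3 call against astrocytes was lost without Astrocytes replicate 1 (0.0711), Astrocytes replicate 3 (0.0657) or OPC replicate 2 (0.0956), at log2 differences of −0.98 to −0.85.

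Progenitor genes, which mark the stage before commitment, rose with the lineage factors. Against astrocytes 9 rose and 3 did not pass of 12 tested (median log2 3.25), and against DRG neurons 11 rose and 1 fell (median 6.12). Cspg4, the NG2 proteoglycan, had 1402, 882 and 980 CPM in OPC and was 5.53 higher than in astrocytes on the log2 scale (SE 0.58, edgeR adjusted p = 0.000101). Tnr, a matrix glycoprotein, was 3.10 higher than in astrocytes (edgeR adjusted p = 0.00107) and 6.41 higher than in DRG neurons (edgeR adjusted p = 3.01e-05). The gene that fell against DRG neurons was Lhfpl3, with means of 0.0927 CPM in OPC and 2.98 CPM in DRG neurons from isoform-specific reads.

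Differentiation inhibitors, which hold precursors back, also went both ways. Against astrocytes 4 rose, 5 fell and 2 did not pass of 11 tested, and against DRG neurons 5 rose, 4 fell and 2 did not pass. Those that fell against astrocytes were the helix-loop-helix repressors Id1, Id2, Id3, Id4 and Hes1, and 3 inhibitors fell without OPC replicate 1, OPC replicate 2 or Astrocytes replicate 3. Against DRG neurons 2 fell in place of 4 without OPC replicate 2, DRG replicate 2 or DRG replicate 3. Id3 fell by 4.61 (SE 0.46, edgeR adjusted p = 8.11e-05), with 22.9, 10.5 and 26.8 CPM in OPC. Id2 fell by 1.10 (edgeR adjusted p = 0.0223), and this call was lost without OPC replicate 1 (0.0599), OPC replicate 2 (0.0839), Astrocytes replicate 1 (0.0587) or Astrocytes replicate 3 (0.0617), at log2 differences of −1.08 to −0.95. Lingo1, a membrane inhibitor of myelination, rose by 2.62 (edgeR adjusted p = 3.72e-05), as did Tnfrsf21, a death receptor family member, by 1.45 (edgeR adjusted p = 0.000463), Hes5 and Sox5. Notch1 was 5.39 higher than in DRG neurons (edgeR adjusted p = 7.31e-06) and did not pass against astrocytes (log2 0.25, edgeR adjusted p = 0.528).

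Genes of galactolipid synthesis and turnover, the pathway of Ugt8a, also divided. Against astrocytes 2 rose, 4 fell and 6 did not pass of 12 tested (median log2 −0.18), beside 26.3% higher and 25.5% lower among all genes. Against DRG neurons 6 rose, 4 fell and 2 did not pass (median 0.36), beside 31.1% higher and 28.4% lower among all genes. The 2 that rose over astrocytes were Fa2h (log2 7.98, edgeR adjusted p = 0.00181) and Gal3st1 (log2 3.40, edgeR adjusted p = 0.00281), the steps next to galactosylceramide. The 4 that fell act in lysosomal breakdown (Galc and Arsa) or in the ceramide backbone (Degs1 and Kdsr). Other genes of these steps did not pass against astrocytes. Ratios of means of OPC over astrocytes were 0.83 for Asah1 and 0.73 for Psap in the lysosome. They were 0.94 for Sptlc1 and 1.07 for Sptlc2 in the backbone. Arsa, the sulfatide sulfatase, fell by 2.77 against astrocytes (edgeR adjusted p = 5.7e-05) and Galc, the galactosylceramidase, by 0.90 (edgeR adjusted p = 0.00524). Over DRG neurons Galc rose by 1.11 (edgeR adjusted p = 0.00131) and Cers2, the synthase of very long chain ceramides, by 1.44 (edgeR adjusted p = 7.8e-05).

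Relatives of the 9 genes, from their protein families or known as binding partners, were counted as a further list. Of 16 family relatives 9 were tested, and 2 rose and 5 fell against astrocytes while 2 rose and 3 fell against DRG neurons. Of these, 1 rose over astrocytes without Astrocytes replicate 1, 2 or 3, DRG replicate 3, OPC replicate 1 or OPC replicate 3. Neu1, the lysosomal sialidase related to Neu4, had 63.9, 38.9 and 62.2 CPM in OPC and did not pass against astrocytes (log2 0.20, edgeR adjusted p = 0.492). Tmem98, a membrane protein that binds MYRF and blocks its cleavage, was 4.03 higher than in DRG neurons (edgeR adjusted p = 9.7e-06) and fell by 2.08 against astrocytes (edgeR adjusted p = 0.000273). It was lowest among OPC libraries in replicate 1, where Myrf was highest, and stood at 18.9 and 19.3 CPM in OPC replicates 2 and 3. Enpp3 rose over both other types (log2 3.47 over astrocytes and 3.82 over DRG neurons), and Enpp4 and Enpp5 fell against astrocytes.

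Between DRG neurons and astrocytes 60.2% of all genes passed, 27.4% higher and 32.7% lower. Of the lineage transcription factors 1 rose and 9 fell, and 2 rose without OPC replicate 1 or OPC replicate 3. The gene that rose with all libraries was Sox10, by a log2 of 2.77 (edgeR adjusted p = 0.00482). Other myelin genes gave 2 that rose, Tspan2 and Ppp1r14a, and 4 that fell. Committed precursor genes gave 2 that rose and 4 that fell, and progenitor genes 1 that rose and 7 that fell. Without Astrocytes replicate 3, DRG replicate 2, DRG replicate 3 or OPC replicate 2 the committed precursor genes that rose numbered 1, and without Astrocytes replicate 2 the progenitor genes that rose numbered 2.

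The genes most alike in pattern were taken as those with the highest Pearson correlation of log2(CPM + 1) over the 9 libraries, among 8830 genes with a mean of at least 5 CPM in OPC. With the mean of the 9 standardized genes, 9630013A20Rik had r = 0.977, Gjc3 0.976, Chadl 0.962, Pcdhb6 0.956 and Seh1l 0.956. Gjc3, a connexin gene, had 118, 8.73 and 7.82 CPM in OPC, 0.54, 0.29 and 0.80 CPM in DRG neurons and 1.49, 0.47 and 1.41 CPM in astrocytes. It was also the gene nearest to Gpr17 (r = 0.993) and to Neu4 (r = 0.982). Bfsp2, a lens filament gene, was nearest to Enpp6 (r = 0.983) and stood at 23.9, 0.47 and 0.22 CPM in OPC. Tle4, a corepressor, was nearest to Myrf (r = 0.990) and Tppp, a tubulin binding protein of oligodendrocytes, to Mbp (r = 0.990). For Bcas1 it was A930009A15Rik (r = 0.997), for Ugt8a Nanos1 (r = 0.992), for Cnp Asrgl1 (r = 0.993) and for Mag Ercc4 (r = 0.950). The 9 points of each correlation fall into 3 cell types with 1 OPC library apart, so the values describe these libraries.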

How the data were processed

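Poly(A)-selected RNA of 9 cultures was made into stranded libraries and sequenced, per the labels' protocols. The authors deposited raw read counts per RefSeq transcript accession, from alignment with TopHat2 to mm10 and counting with HTSeq, per the submitters' processing notes; the sources used here give no versions, counting mode or strand setting. Reads in no accession, in several, or aligned more than once (37.1 to 46.9% of the reads in the tables) were left out. Of 33787 accessions, 32417 took a gene symbol from RefSeq (GRCm38.p6) and 187 from GENCODE vM21, whose transcripts gave lengths and exons. The 1183 others kept their identifier. Counts were summed to 25085 genes.

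CPM are counts over library sizes scaled by TMM factors. Tests used edgeR 4.0.16 (R 4.3.3) and its quasi-likelihood F-test on all 9 libraries with 1 coefficient per cell type, after filterByExpr (minimum count 10), with Benjamini-Hochberg adjustment over 14850 genes and a threshold of 0.05. Each SE is the log2 fold change over the square root of F. The procedure was also run on simulated counts in which a small set of genes was changed, in OPC alone. That setting differs from these data, where most genes passed, so it does not check the scaling here. Single-library ratios used a pseudocount of 0.5 CPM.

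The 9 genes and all lists were chosen with earlier results of these data known. Named from each list were up to 4 genes that passed, those with the highest mean CPM in OPC, and further genes needed to account for a small count. Genes chosen after their values were seen are Bfsp2, Fa2h, Gal3st1, Bmp4, Tmem88b, Opalin, Olig2 by replicate, Mog, Mobp, Sox2, Hes5, Sox5, Nkx6-2 and the overlapping genes. So are Megf11, C1ql1, Ptprz1, Matn4 and Sox8 by replicate, and Asah1, Psap, Sptlc1 and Sptlc2. Alternatives were DESeq2 1.42.0, other scalings, no filter, the accession with the most counts, a replicate block and leaving out libraries.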

Additional observations from a re-analysis of the deposited data

How the results depend on the processing

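The number of genes that passed stayed within 1.5 times the reported one under every setting tried, between 6492 and 8405 for OPC against astrocytes, 7660 and 9703 for OPC against DRG neurons, and 7758 and 9799 for DRG neurons against astrocytes. The median ratio of the 9 genes in OPC replicate 1 lay between 2.84 and 3.44. Fitted log2 differences of 3 of the 9 genes changed sign, and no cause was tested. Cnp in OPC against astrocytes (0.14) was −0.196 with the accession with the most counts, −0.0628 without Astrocytes replicate 2 and −0.177 without OPC replicate 1, with 0.490 as its highest value when 1 library was left out. Myrf in OPC against DRG neurons (0.30) was −0.515 with the replicate block and −1.81 without OPC replicate 1, with 0.789 as its highest value when 1 library was left out. Mag in OPC against astrocytes (0.58) was −0.165 with the replicate block and −2.26 without OPC replicate 1, against 1.42 without Astrocytes replicate 1 and at most 1.76 when libraries were left out. Another scaling moved the median log2 of all genes by −0.10 and −0.11 for OPC against astrocytes, by −0.17 and 0.15 for OPC against DRG neurons and by 0.07 and −0.26 for DRG neurons against astrocytes, with DESeq2 size factors and library size alone in this order. Of 714 recomputed list counts 48 moved by more than 1.5 times. Every list counted was small, with between 9 and 14 tested genes. Of 952 recomputed tests of named genes 40 lost the call, in Car2, Id2, Lims2, Lingo1, Neu1, Plxnb3, Tnfrsf21, Tns3 and Trf, and none changed direction. Trf in OPC against astrocytes lost it with the replicate block as well (log2 −2.30, edgeR adjusted p = 0.0603). Groups share replicate numbers. Deviations from the group means correlated at −0.0355 to 0.128 between same-numbered libraries and at −0.13 to 0.0776 between the others. The share of reads left out of counting was highest in replicate 1 of each group. It was 45.0, 41.9 and 37.1% in OPC replicates 1 to 3, 46.9, 42.6 and 42.5% in DRG neurons and 42.6, 41.6 and 41.0% in astrocytes. Whether same-numbered libraries shared a batch was not tested. With the replicate block 7421 genes passed for OPC against astrocytes, 8695 for OPC against DRG neurons and 8747 for DRG neurons against astrocytes. Depth limits Enpp6, Neu4 and Bcas1 outside OPC, where a group held 0 to 30 reads. It also limits Gpr17 and Mag in DRG neurons, with 10 and 22 reads over the group.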
